A study of Mus musculus with 8 samples.

Results

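The 200 windows of 100 kb in which BRG1 regions covered the largest share of the mouse autosomes are described here, together with the 4908 BRG1 regions that lie in them, of the 524614 regions in the list. The mm9 build of chromosomes 1 to 19 was tiled in 24712 full windows from the first base of each chromosome. Windows with an unsequenced base (1015) or touching a region longer than 100 kb (92, all but 1 of which also held an unsequenced base) were set aside, which left 23696 eligible windows. The 200 windows (0.844% of those eligible) were selected on the measured share of bases inside regions, so that share and everything built from it are given as descriptions, without a test. The regions come from the authors' list for Tβ4-primed, injured hearts. By the labels the mice were adult C57BL/6, 10 to 12 weeks old. The strain carries the suffix J in the paper, which also states an older age for mice with infarcts. The mice received Tβ4 (thymosin β4, an actin-binding peptide) intraperitoneally at 12 mg per kg every day for a week. Surgery followed, in which a lasting tie around a main coronary artery of the left ventricle (LAD) caused a myocardial infarction (MI). Tβ4 was injected again on the day of surgery and 2 days later, and hearts were collected 4 days after MI. A PBS-primed arm was treated alike with vehicle, and each arm gave 2 BRG1 ChIP and 2 input libraries, 8 in all. No list of the PBS-primed arm was analysed here, so nothing below compares PBS with Tβ4. The hearts were taken whole, their cell types are mixed, and a list of positions holds no expression with which tissue markers could be checked. The list joins the duplicates in a way that the sources used here do not give. It carries no height, fold or depth, and the values below are therefore those of 1 list with no error between replicates.

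BRG1, encoded by Smarca4, is an ATPase that drives SWI/SNF chromatin-remodelling complexes. These complexes shift or remove nucleosomes and so change how accessible DNA is to transcription factors. Normal development of the heart needs BRG1, and in other tissues it is found at promoters, enhancers and along transcribed genes. The list is named for BRG1 against input. Its regions are read here as stretches of genome over which reads from the BRG1 immunoprecipitate exceeded those from input chromatin. A window that is largely covered may hold many regions, long regions, or both.

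To show the kind of DNA under the regions, the middle 200 bases of the longest region of each of the 5 most covered windows are printed from the mm9 reference, on the plus strand, 5′ to 3′. Capitals mark CpG dinucleotides, the substrate of DNA methylation in mammals. All 5 stretches lie in the body of the protein-coding gene named and none touches a coding exon.
Dlgap1, chr17:70928900-70929099: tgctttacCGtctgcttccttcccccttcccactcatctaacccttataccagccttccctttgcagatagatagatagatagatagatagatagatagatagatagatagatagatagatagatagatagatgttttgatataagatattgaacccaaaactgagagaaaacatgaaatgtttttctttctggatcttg
Nr3c2, chr8:79749590-79749789: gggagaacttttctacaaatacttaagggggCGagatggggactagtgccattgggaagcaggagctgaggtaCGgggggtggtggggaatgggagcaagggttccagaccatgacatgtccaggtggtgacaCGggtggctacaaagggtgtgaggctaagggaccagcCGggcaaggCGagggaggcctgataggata
2810055G20Rik, chr16:77589515-77589714: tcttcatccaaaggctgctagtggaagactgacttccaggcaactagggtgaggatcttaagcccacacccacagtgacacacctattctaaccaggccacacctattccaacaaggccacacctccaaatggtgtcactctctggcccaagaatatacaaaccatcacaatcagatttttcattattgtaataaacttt
Cadm1, chr9:47622200-47622399: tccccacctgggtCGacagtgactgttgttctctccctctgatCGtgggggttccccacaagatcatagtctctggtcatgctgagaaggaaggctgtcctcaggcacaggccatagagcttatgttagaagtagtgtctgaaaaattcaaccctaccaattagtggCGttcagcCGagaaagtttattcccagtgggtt
Lsamp, chr16:42007865-42008064: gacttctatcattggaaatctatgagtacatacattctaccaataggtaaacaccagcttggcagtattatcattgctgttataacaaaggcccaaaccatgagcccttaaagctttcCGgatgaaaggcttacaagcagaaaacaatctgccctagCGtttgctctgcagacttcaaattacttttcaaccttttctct
The Dlgap1 stretch holds 1 CpG and a tandem repeat of agat with 17 copies over 68 bp, and its GC content is 35.5%. The Nr3c2 stretch has the highest GC content, 58.0%, with 5 CpGs. The 2810055G20Rik stretch has no CpG, the Cadm1 stretch has 4 and the Lsamp stretch 2. The whole regions around them were 9540, 18360, 11850, 12720 and 8190 bp long in that order, with GC contents between 37.7% and 45.8% and between 4.88 and 10.4 CpGs per kb. Few positions in these regions were repeated elsewhere in the genome: of the 36-base words (36-mers) sampled every 100 bp, 1 of 95 in the Dlgap1 region, 8 of 183 in the Nr3c2 region, 3 of 119 in the 2810055G20Rik region, 2 of 127 in the Cadm1 region and 3 of 82 in the Lsamp region had more than 2 exact placements in mm9.

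The covered share of the 200 windows ran from 50.2% to 65.6%, with a median of 52.9%, while the median of all eligible windows was 26.01% and their middle 90% lay between 13.0% and 42.1%. The shares fell off without a step at the limit. The 5 windows just inside it had shares of 50.31%, 50.26%, 50.20%, 50.19% and 50.19%, and the 5 just outside had 50.16%, 50.13%, 50.13%, 50.08% and 50.07%. The 200 windows are thus the upper end of 1 continuous distribution, which the plot of covered shares shows, and the lowest of them stood 2.68 SD above the mean of eligible windows (26.5% ± 8.83, SD over windows).

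**Figure D1:**
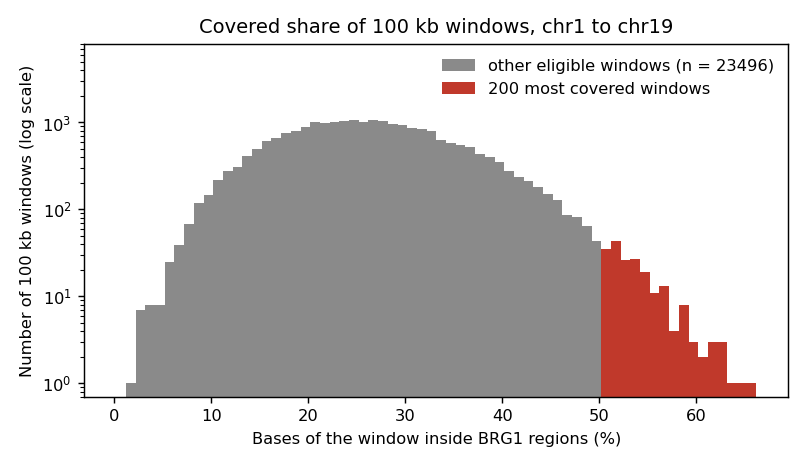
Number of 100 kb windows (log scale) against the share of their bases inside BRG1 regions, in steps of 1 percentage point counted from the lowest of the 200 windows. Red bars are the 200 most covered windows, from 50.2% to 65.6%, and grey bars the other eligible windows, and no gap separates the 2 sets.

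The most covered window lay inside Dlgap1, which encodes a scaffold protein of the postsynaptic density. It spans chr17:70900001-71000000, and 28 regions covered 65.6% of it, against 43.0% and 16.9% in the windows on either side. The next window, chr8:79700001-79800000, held the end of Nr3c2, the gene of the mineralocorticoid receptor that binds aldosterone, and part of Arhgap10. Its 23 regions covered 65.2%, and the window beside it on the Nr3c2 side was covered to 36.1%. The window at rank 3, chr16:77500001-77600000, was covered to 63.5% by 31 regions over 2810055G20Rik and Gm11146. Cadm1 and Lsamp, which encode immunoglobulin-type cell adhesion molecules, overlapped the windows at ranks 4 and 5. The first, chr9:47600001-47700000, had a share of 63.1% (19 regions), and the body of Cadm1 filled 65.7% of it. The second, chr16:42000001-42100000, lay inside Lsamp and had a share of 63.0% (21 regions).

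The window at rank 6, chr2:115400001-115500000, overlapped BC052040 and was covered to 62.9% by 19 regions. Etv6, an ETS-family transcriptional repressor needed for blood stem cells, enclosed the window at rank 7, chr6:134000001-134100000, where 37 regions covered 62.0%. Vps13d, a lipid transfer protein gene, enclosed the window at rank 8, chr4:144600001-144700000, with 28 regions and a share of 61.8%. Trio, a guanine nucleotide exchange factor gene, enclosed the window at rank 9, chr15:27800001-27900000, with 33 regions and a share of 61.4%. Only the window at rank 10, chr8:105800001-105900000, overlapped no protein-coding gene. Its 27 regions covered 61.1%, and the nearest protein-coding gene, Gm8730, lay 410223 bp away. The neighbours of these 10 windows were covered to between 16.9% and 43.0%, so all 20 neighbouring windows lay below the lowest of the 200.

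**Figure D2:**
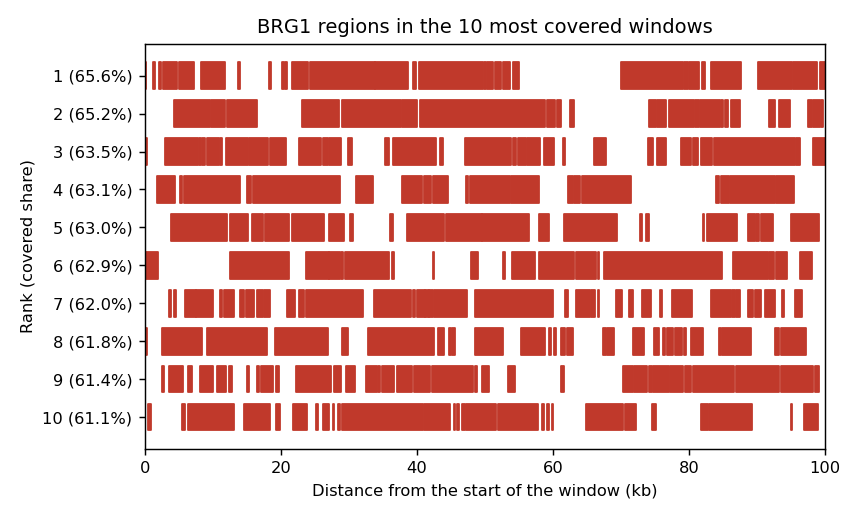
BRG1 regions (red blocks) in the 10 most covered windows, 1 window per line, with its rank and covered share at the left and the distance from the start of the window in kb along the bottom. Each window holds 19 to 37 regions, in which a few long blocks stand beside many short ones and stretches without any region remain.

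The windows reached their share more through the size of the regions than through their number. A median of 24 regions lay in a window (range 14 to 46), against 20 in all eligible windows (range 3 to 53), a ratio of 1.20. The covered bases per region had a median of 2278 bp against 1249 bp, a ratio of 1.82, and the covered share itself had a ratio of 2.03. Of the 4908 regions, 13.0% were longer than 5 kb and these held 47.1% of the region bases. Among the 481705 regions that lie in other eligible windows alone, 4.15% were longer than 5 kb, with 23.2% of the bases. The regions of the 200 windows had a median length of 1125 bp (range 210 to 21630), and the other regions one of 600 bp. A region of at least 10 kb was present in 110 of the 200 windows (55.0%) and in 9.81% of eligible windows. The bare stretches between regions were shorter as well, with a median of 660 bp against 1470 bp. These lengths enter the covered share on which the windows were selected, and they were not tested.

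Short regions were present in the same windows, in a smaller proportion. At 210 bp, the shortest length in the list, there were 166 of the 4908 regions and 25068 of the 481705 regions of other windows. A median of 4 regions (range 2 to 8) supplied 50% of the covered bases of a window, and a median of 5 of the 10 bins of 10 kb in a window (range 3 to 8) were covered to more than 50%. Number and size traded off between windows. The window with the fewest regions, chr4:13000001-13100000 at rank 104, held 14 regions with 3769 covered bases each and overlapped no protein-coding gene. The window with the most, chr12:76500001-76600000 at rank 43, held 46 regions with 1205 covered bases each, over Rhoj, Gphb5 and Ppp2r5e. This trade-off follows from selecting windows at nearly 1 covered share.

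**Figure D3:**
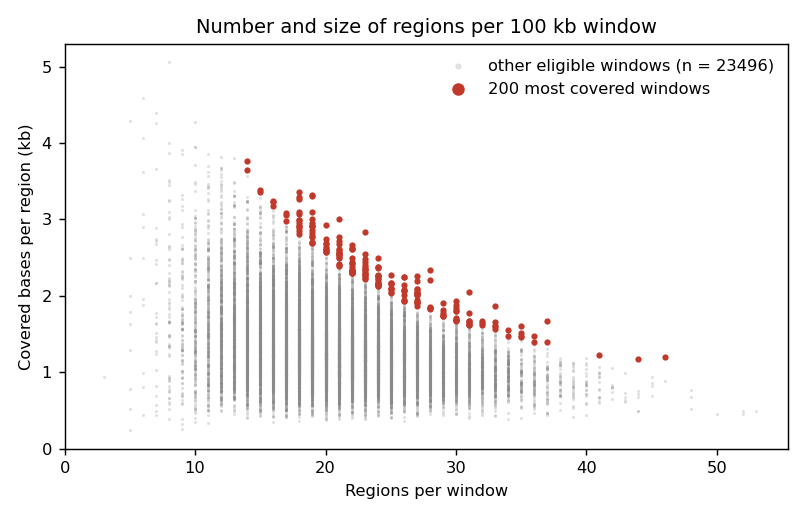
Number of BRG1 regions per 100 kb window (bottom axis) against the covered bases per region in kb (left axis). Each red point is 1 of the 200 most covered windows and each grey point 1 of the other eligible windows, and the red points form a band from 14 regions with 3769 bases each to 46 regions with 1205 bases each.

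The longest of the regions, of 21630 bp at chr19:11894850-11916479, lay over the olfactory receptor gene Olfr1417 and reached beyond the window at rank 83, of which regions covered 53.7%. The next was 20580 bp long, at chr14:37558830-37579409, and overlapped no protein-coding gene. A region of 20130 bp at chr11:35136510-35156639 lay in Slit3, whose product is a secreted guidance ligand of Robo receptors. A region of 19590 bp at chr11:36242850-36262439 lay in Odz2, a teneurin, and one of 18360 bp at chr8:79740510-79758869 lay in Nr3c2. Slit3 and Odz2 are both far longer than a window, and the windows within them were covered to 52.5% and 50.7%, whereas the whole gene bodies were covered to 31.1% and 28.3%.

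High coverage ended close to the edges of the windows, which were selected on their own share and not on that of their neighbours. The windows directly beside the 200, 398 in number, had a median share of 27.4% (quartiles 20.5% and 34.5%), and 4 of them belonged to the 200 themselves. At a distance of 200 kb the median was 27.3%, at 500 kb 26% and at 1000 kb 26.2%, close to the median of all eligible windows at each distance. Of the 198 windows with both neighbours eligible, 64 had both neighbours above the median of eligible windows, 39 had both at or below it and 95 had 1 on each side. In bins of 10 kb, the mean covered share was 46.4% and 50.5% in the outermost bins of the windows, and 25.9% and 32.1% in the bins just outside, where the mean of all eligible windows was 26.5%. Over all eligible windows, the shares of 23487 pairs of adjacent windows had a Pearson correlation of 0.0549, and pairs of adjacent windows share the regions that cross their border. Between bins of 10 kb the correlation was 0.176 for touching bins (236751 pairs), 0.0150 at a distance of 20 kb and 0.00330 at 100 kb. No p-value is given for these correlations, since the bins are not independent samples.

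**Figure D4:**
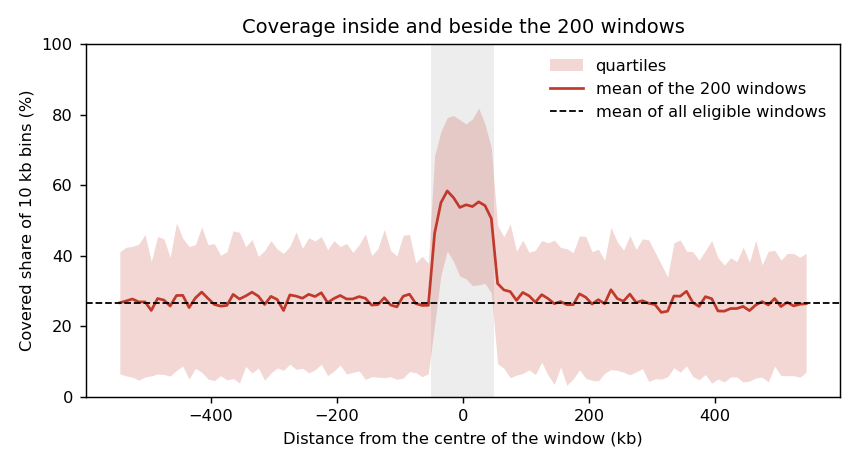
Covered share of 10 kb bins (left axis, %) against the distance of the bin from the centre of the window in kb. The red line is the mean and the pale band the quartiles over the 200 windows, the grey strip marks the windows themselves and the dashed line is the mean of all eligible windows, and the mean drops from 46.4% to 25.9% and from 50.5% to 32.1% across the 2 edges.

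The windows were scattered over the genome. They formed 198 runs, of which all but 2 were single windows and those 2 were pairs. One pair, chr5:8800001-9000000, held the Abcb1b and Abcb4 genes of ATP-binding cassette transporters and Crot, with shares of 52.9% and 55.1%. The other, chr9:49400001-49600000, lay inside Ncam1, the neural cell adhesion molecule, with shares of 54.1% and 53.8%. Every autosome had members, from 3 on chromosome 15 (0.300% of its eligible windows) to 16 on chromosome 4 (1.06%), and chromosome 16 had the highest percentage (1.49%, 14 windows). When each chromosome was cut into 3 equal parts, 50, 73 and 77 of the windows lay in the first, middle and last part, where 31.4%, 34.3% and 34.2% of eligible windows lie.

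The windows held less repeated sequence than most. In each window, 1000 positions were sampled and the exact placements of the 36-mer at each were counted on both strands of mm9. A median of 4.0% of positions (range 0.8% to 28.8%) had more than 2 placements, against a median of 8.8% in eligible windows, and with 75-mers the medians were 1.1% and 3.2%. When eligible windows were ordered by this percentage and cut into 5 equal groups, the groups from least to most repeated held 102, 46, 33, 18 and 1 of the 200 windows, or 2.15%, 0.971%, 0.696%, 0.380% and 0.0211% of their windows. The median covered share over all windows of those groups fell less steeply, from 28.2% to 22.3%. Over eligible windows, the Spearman correlation of the covered share with the repeated percentage was -0.219 (n = 23696 windows, which share the same libraries). The single member in the most repeated group was chr7:6500001-6600000 at rank 112, with 28.8% of positions repeated and the olfactory receptor gene Olfr1350.

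Within the windows, too, positions with many placements were less often inside a region. Of positions with a single placement, 55.0% lay inside regions, compared with 45.8% at 2 placements, 43.2% at 3 to 10, 37.3% at 11 to 100 and 27.8% at more than 100. In the other eligible windows the values were 27.9%, 23.8%, 21.6%, 17.6% and 11.7%. The 200 windows were higher in each of the 5 classes, which follows in part from their selection on the covered share. Positions with a single placement made up 93.7% of their positions against 86.2% elsewhere. The mapping setting given in the paper is read here as discarding reads with more than 2 placements. The part of that step in the choice of windows was not tested.

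**Figure D5:**
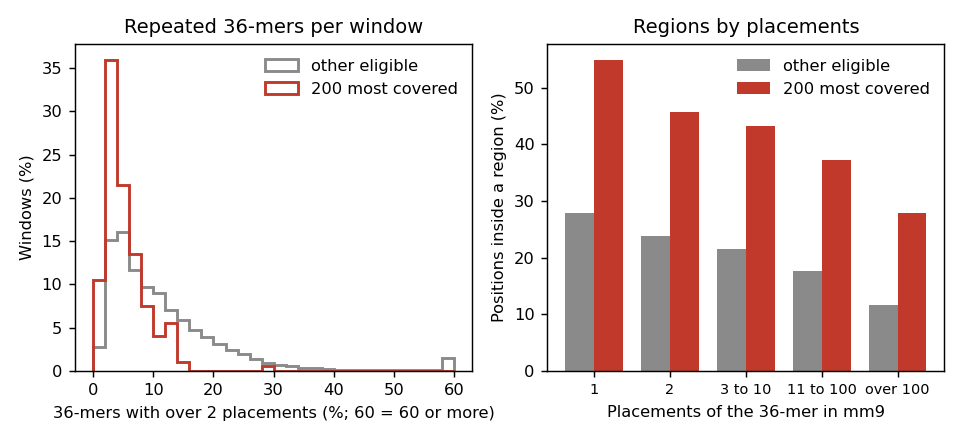
Left, share of windows (%) against the percentage of their 36-mers with more than 2 placements, for the 200 windows (red) and the other eligible windows (grey). Right, percentage of positions inside a BRG1 region by the number of placements of the 36-mer that starts there, which falls from 55.0% to 27.8% in the 200 windows and from 27.9% to 11.7% in the others.

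Base composition was close to that of all eligible windows, but its direction depended on the windows it was set against. The median GC content was 41.8% (range 35.1% to 51.5%) against 41.4% in eligible windows, and the ratio of observed to expected CpGs was 0.185 against 0.180. Among windows with under 10% repeated positions, the median GC content of the 178 members was lower than that of the 13161 windows, 41.99% against 43.57%. The lowest GC content belonged to chr14:90100001-90200000 at rank 172, which overlapped no protein-coding gene, and the highest to chr12:112500001-112600000 at rank 148, over Traf3, an adaptor of TNF-receptor signalling, Amn and Cdc42bpb. Bases inside and between the regions of the 200 windows were also alike, with GC contents of 41.8% and 42.2%, 8.43 and 8.73 CpGs per kb, 2.79% and 2.92% coding exon, and 50.1% and 48.6% intron.

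Short motifs were searched on both strands, and the 4 common ones were at similar densities inside and between the regions of the 200 windows. The letters TGANTCA were found at 0.333 per kb inside and 0.332 between. N stands for any base, so this pattern includes the sites of AP-1 factors but is wider than them. CAGCTG, an E-box of basic helix-loop-helix factors, was at 0.426 and 0.440, and GGAATG, recognised by TEAD factors, at 0.606 and 0.589. The dinucleotide run CACACACA was at 2.43 and 2.40. Over all eligible windows, the densities inside and between were 0.330 and 0.315 for TGANTCA and 0.402 and 0.404 for CAGCTG. They were 0.595 and 0.591 for GGAATG, and 2.34 and 2.16 for CACACACA. A member window held a median of 232.5 matches to CACACACA, against 208 in eligible windows. These differences were not tested. The palindrome TTGCGCAA, recognised by C/EBP factors, was rare, at 0.00111 per kb inside and 0.000541 between. These densities differ but rest on few matches, since the motif was present in 8.5% of the 200 windows and 7.94% of eligible windows. All eligible windows held each of the other 4 motifs. A match is a string of letters and does not show that a factor was bound.

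Protein-coding genes in the windows were long. Of the 200 windows, 142 (71%, 95% Wilson interval 64.4% to 76.8%) overlapped a protein-coding gene, against 64.9% of eligible windows. Coding gene bodies filled a median of 55.4% of a window against 28.8%, and 52 windows (26%) lay wholly inside gene bodies against 14.6%. The median length of the 226 genes in the windows was 87.1 kb, against 15.7 kb for the 21119 genes of eligible windows, and 103 of them (45.6%) were at least 100 kb long, against 10.8%. A long gene meets more windows, and counted once for each window it meets, the medians were 90.3 kb and 29.1 kb. Gene starts were no more frequent than elsewhere: 75 windows (37.5%, interval 31.1% to 44.4%) held a coding gene start against 43.5%, at a mean of 0.600 starts per window against 0.889. These intervals cover counting error only and treat windows as independent.

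The figures on genes depend on how the windows are cut and what they are set against. With the tiling shifted by 50 kb, 65.5% of the 200 most covered windows and 64.8% of all windows overlapped a coding gene. Among the 13161 eligible windows with under 10% repeated positions, 78.3% overlapped a coding gene, and 75.8% of the 178 members among them did so. Gene bodies still filled a larger part of these members, with medians of 66.9% and 58.5%, and 28.1% of them lay wholly inside gene bodies, against 18.4%. A coding gene start was present in 39.3% of them and in 52.0% of the low-repeat windows in general.

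The covered starts follow in part from the share on which the windows were selected and are given as a description. Of the 120 coding gene starts in the 200 windows, 49 (40.8%) fell inside a region, while 53.8% of all bases of these windows were inside regions. In all eligible windows 24.2% of 21055 starts and 26.5% of bases were inside regions.

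Genes that met 2 of the windows were Abcb4, Nr3c2, Ncam1 and Park2. Abcb4, the phospholipid exporter of bile, lay wholly inside the pair on chromosome 5, and regions covered 61.1% of its body and its start. Nr3c2 was covered to 62.3% inside the windows and to 49.7% over its whole body of 345571 bp. Ncam1 was covered to 53.9% and 50.3%, and Park2, which encodes the ubiquitin ligase parkin, to 51.9% and 34.2%.

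Of the genes that lie wholly in the windows and are at least 10 kb long, Tectb, which encodes β-tectorin of the inner ear, had the highest covered share, 88.8% of 15581 bp with its start in a region. Zfp957, a zinc finger gene, was covered to 78.7%, Il22ra2, a soluble decoy receptor for an interleukin, to 78.6%, and Tex264, a receptor for autophagy of the endoplasmic reticulum, to 77.5%. Grm2, a metabotropic glutamate receptor, followed at 76.0%, Gm9961 at 74.5% and Noc3l, a nucleolar protein, at 70.9%. Bves, at chr10:45055568-45089514, encodes a cyclic AMP-binding membrane protein of the Popeye family that was named after the epicardium and is found in heart and skeletal muscle. Its body was covered to 64.7%, with its start in a region. The last of the 10 highest were 2810055G20Rik (63.3%) and Dnmt1, the maintenance DNA methyltransferase (63.2%), whose start was not in a region.

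Of the 21119 protein-coding genes in eligible windows, 226, or 1.07%, overlapped a member window, and lists of heart genes can be read against that percentage. None of 12 epicardial genes did, nor any of 12 cardiac transcription factor genes, 13 sarcomere genes, 12 calcium and ion channel genes, 12 matrix genes, 10 endothelial genes or 8 macrophage and inflammation genes. Lists of this length would hold fewer than 1 gene at 1.07%, so these counts do not set them apart. All of these counts also depend on the genes listed. Nrap, Kcnma1, Kcna4 and Atp2b2 overlapped member windows and were on neither the sarcomere nor the calcium and ion channel list. Bves also lay in a member window and was not on the epicardial list. Of 8 cardiac genes listed by the study, 1 overlapped: Col1a2, which encodes a chain of type I collagen and was not on the matrix list, so the count of 0 there depends on that list. It lay wholly inside chr6:4400001-4500000 at rank 165, and 61.2% of its 36730 bp were covered, although its start was not. Of 14 SWI/SNF subunit genes, 1 overlapped: Arid1b, a subunit of the complex that BRG1 itself drives. Its window, chr17:5100001-5200000 at rank 134, was covered to 51.9%, and its whole body of 353325 bp to 35.9%.

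Gene families that lie in clusters can be read against the same 1.07%. Of 1099 olfactory receptor genes, 5 (Olfr1350, Olfr1417, Olfr1418, Olfr1419 and Olfr1420) lay in the windows, and 4 of these are neighbours in 1 window on chromosome 19, so they are not independent. Their bodies, each near 1 kb, were covered to between 22.8% for Olfr1420 and 100% for Olfr1417, and the starts of Olfr1417 and Olfr1419 were in a region. None of 200 Vmn1r and 116 Vmn2r vomeronasal receptor genes, 51 Krt, 40 Hox, 34 Pcdh and 67 Hist genes was in the windows. Of 352 Zfp genes, Zfp804a and Zfp957 were. The adjacent protease inhibitor genes Serpina3f (35.2% of its body) and Serpina3g (84.2%) were the only members of 59 Serpin genes, and Cyp8b1, a sterol hydroxylase of bile acid synthesis covered to 33.1%, was the only one of 98 Cyp genes. At 1.07%, the Krt, Hox, Pcdh, Hist, Serpin and Cyp families would each hold about 1 gene or fewer, so their counts do not set them apart. The counts of olfactory receptor, Vmn1r, Vmn2r and Zfp genes were not tested against that percentage either. It takes no account of gene length, and a long gene meets more windows.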

How the data were processed

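The authors sequenced BRG1-bound and input chromatin from infarcted hearts of both arms. Per the submitters' processing notes, reads were mapped with Bowtie 1.0.0 to mm9 and regions were called with MACS2 2.0.10. The paper adds the Bowtie setting -m 2 and names the bdgcomp function of MACS2. That setting is read here as discarding reads with more than 2 placements, which the paper does not spell out. The list is named with what reads as a cutoff (c3.0) and a condition (cond1). That is the form of an output of bdgdiff, another function of MACS2. Which of these functions made the list could not be settled from the sources used here. The scale of that cutoff and the combination of the duplicates are not given in the sources used here. The deposited list for Tβ4 gives positions in bp, with no counts, score or depth. Its regions do not overlap, and all lengths up to 100 kb are multiples of 30 bp.

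Covered bases were summed per window in Python 3.11.15 (numpy 2.4.6, pandas 2.3.3, scipy 1.17.1, numba 0.67.0, matplotlib 3.10.9) against the NCBIM37 (mm9) genome and its GENCODE vM1 annotation. Regions crossing an edge (139) were clipped for bases and counted in each window. Covered bases and k-mer placements were tested on simulated data, where known answers were recovered in full. The 226 gene records include repeated symbols (2810055G20Rik, Nrap, Runx2).

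Named were the 10 most covered windows, runs, list genes, the 10 most covered whole genes, families with 5 or more genes and the 5 longest regions. Windows at the extremes of region number, GC content and repeats, and genes in 2 windows, were named after their values were seen. So were the genes named as absent from the sarcomere and the calcium and ion channel lists. The absence of Bves from the epicardial list was also pointed out after its values were seen. Members and lists were chosen with earlier results of these data known. No test was run. Alternatives were another offset, window size, number kept, ranking, joining, region length, repeat limit and k-mer length. Comparisons of 10 kb bins, of gene lengths per window and of gene content in low-repeat windows were added after seeing the data.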

Additional observations from a re-analysis of the deposited data

How the results depend on the processing

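The choice of windows depended on how they were cut and ranked. With the tiling shifted by 50 kb, 60 of the 200 windows then kept overlapped 1 of the original 200. Ranking by the number of regions gave 7 shared windows, with a median GC content of 45.6%, 90.5% overlapping a coding gene and a repeated share of 5.2%. Regions of at most 5 kb alone gave 19 shared windows, with 44.3%, 81% and 5.0% for the same measures. With 100 windows kept, all 100 were shared, which the use of the same ranking fixes in advance. Windows of 50 kb overlapped a coding gene in 58.3% of 400 cases (57.7% of all such windows) with a repeated share of 3.4% (all 7.4%), and after the shift the overlap was 65.5% (all 64.8%), so the excess over the background was nearly absent in both. Counting gene starts gave 37.5%, and 75-mers gave a repeated share of 1.1%. The cause of these changes was not tested. Joining regions within 500 bp kept 187 of the windows. The limit of 10% repeated positions kept 178, which is the number of members under that limit. Since the ranking was unchanged, all of these had to be kept, and this count says nothing on stability. The repeated share was below that of all windows under each setting run. No paired analysis was possible because the list holds no values per replicate, and for the same reason no replicate could be left out. The share of annotated repeats was not computed, since the reference used carries no repeat masking. Depth is unknown, so a bare stretch cannot be told from one sequenced too thinly.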

Other observations

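On chromosome X, which was not part of the selection, 1585 windows without unsequenced bases had a median covered share of 23.9% and a highest share of 55.1%, and 2 of them (0.126%) reached the lowest share among the 200 autosomal windows. Of 924 autosomal windows set aside for unsequenced bases alone, 15 reached that share.

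Among the 200 windows, 58 overlapped no protein-coding gene (29.0%, against 35.1% of eligible windows). A lincRNA gene was present in 9 windows (4.5%, 95% Wilson interval 2.39% to 8.33%), against 5.95% of eligible windows, and a pseudogene in 16 (8.0%, interval 4.98% to 12.6%), against 12.4%. The interval for pseudogenes holds the background percentage only at its upper end, and it covers counting error alone.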
